A study of Mus musculus with 12 samples.

Results

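Pdpk1, the gene that encodes the kinase PDK1, lies on mouse chromosome 17, and 9 genes of the same chromosome differed between Pdpk1-null and Cre control cytotoxic T lymphocytes (CTL): Glo1, Dnah8, Tmem181a, Tmem242, Cpne5, Baiap3, Dynlt1f, Gfer and 1700010I14Rik. They are 9 of the 18193 genes that at least 1 probe set of the array names alone, and all lie among the 327 measured genes nearest to Pdpk1. They were chosen by measured values: the probe set that represents each gene, the one with the highest mean signal over the arrays, was called after Pdpk1 deletion, was not called with AktI, and gave effects that differed between the 2 experiments. Zinc finger genes of the chromosome that met the same conditions were left out. The values of Pdpk1-null against Cre control CTL therefore chose the genes and are given as a description, with no test.

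Gene expression was measured on 12 mouse arrays, 3 per group, as log2 signal. Pdpk1-null CTL came from mice with floxed Pdpk1 alleles (PDK1fl/fl) and a tamoxifen-inducible Cre (TamoxCre) in the ROSA26 locus. Cre control CTL came from mice with the same TamoxCre and, by the study's figure legend, wild-type Pdpk1 alleles (Pdpk1+/+). These 2 groups thus differ in the Pdpk1 alleles of the mice as well as in the deletion. Both were treated with 0.6 µM 4-hydroxytamoxifen (4OHT) for the last 72 h of culture. In a second experiment AktI CTL received 1 µM AktI-1/2, an inhibitor of the kinase Akt, for the last 48 h, and wild-type CTL were the untreated portion of the cells of the same 3 mice. All 4 groups were made from splenic T cells activated for 48 h with 0.5 µg/ml CD3 antibody, washed, and kept in 20 ng/ml IL-2 over 5 days of culture. Of the array cultures, the study's text names IL-2 during activation for the AktI experiment only. The labels give the C57BL/6 strain for every array. The samples are bulk cultures, so a smaller number of cells that express a gene and less RNA per cell cannot be told apart.

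The 9 genes have unrelated known roles. Glo1 is glyoxalase I, which clears the reactive glycolytic by-product methylglyoxal with the help of glutathione, and Gfer is the sulfhydryl oxidase of the mitochondrial disulfide relay, which folds small proteins in the intermembrane space. Dnah8 is a heavy chain of the axonemal dynein motor, known from sperm tails, and Dynlt1f belongs to the Tctex-type light chains of cytoplasmic dynein. Tmem181a is a membrane protein whose human counterpart serves as a receptor for a bacterial toxin, Cpne5 is a copine, a protein that binds phospholipids when calcium is present, and Baiap3 is a Munc13-family protein of vesicle release. In human cells TMEM242 takes part in the assembly of respiratory chain complex I and ATP synthase.

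Dynlt1f shares its name and its chromosome with Dynlt1a, Dynlt1b and Dynlt1c, and most of its probe sets name it together with them. Promoter sequence was at hand for Dynlt1f and Dynlt1c, and the stretches that their promoter windows have in common are shown to describe how alike this pair of genes is outside the transcript, 5′ to 3′ on the strand of each gene, from RefSeq on the GRCm38.p6 build. Capitals mark the bases at which the copies differ, 3 of 142, so that 97.9% of the bases are identical. The Dynlt1f stretch is chr17:6655940-6656081 on the minus strand and the Dynlt1c stretch is chr17:6601529-6601670 on the plus strand, both upstream of the annotated transcript start and so not part of the RNA that probes bind.
Dynlt1f: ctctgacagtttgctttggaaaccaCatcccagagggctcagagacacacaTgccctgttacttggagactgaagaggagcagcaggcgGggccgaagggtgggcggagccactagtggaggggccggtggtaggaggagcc
Dynlt1c: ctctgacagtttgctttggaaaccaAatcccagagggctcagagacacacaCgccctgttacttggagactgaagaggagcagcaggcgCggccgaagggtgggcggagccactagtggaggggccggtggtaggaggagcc
Of the 4 probe sets that name Dynlt1f, 1 names it alone and 3 name it together with Dynlt1a and Dynlt1c. In the RefSeq gene models Tmem181a overlaps Dynlt1a, and Dynlt1b overlaps Tmem181b-ps. Which of these transcripts a probe binds was not looked up, since the probe sequences were not used here.

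The arrays of a group correlated at 0.996 or more. The median signal of an array reached at most 4.62 in the Pdpk1 experiment and 5.14 in the AktI experiment, and varied by less than 0.05 within each. From this the experiments were taken to be normalised separately, which no source used here states, and levels are compared only within an experiment. A background level was set for each experiment from receptors of smell and pheromones, which T cells are not known to use: the 95th percentile of the 80 such probe sets, at 4.45 for the Pdpk1 and 4.99 for the AktI experiment. All 8 markers of T cells and CTL were above it in every group, with a summed linear signal of 32576 to 35400 in Pdpk1-null and 35232 to 37069 in Cre control CTL. Of the 4 B cell markers 2 were above background in Pdpk1-null CTL and 2 in Cre control CTL, with sums of 101 to 109 and 88 to 103, and the NK cell marker Ncr1 was below background in all groups. Of the 5 myeloid markers 3 were above background in Pdpk1-null CTL and 2 in Cre control CTL, with sums of 164 to 183 and 162 to 168. Of the 2 helper T cell markers 2 were above background in Pdpk1-null CTL and 1 in Cre control CTL, with sums of 110 to 127 and 113 to 131. Cd4, 1 of these 2, was above background in every group. The part of such cells in the results was not tested. Pdpk1 itself differed by 0.05 and -0.04 on the log2 scale between Pdpk1-null and Cre control CTL by its 2 probe sets (limma, adjusted p = 0.822 and 0.853). Its transcript level is thus no check of the genotype labels, and whether these probes lie in the deleted part is not given in the sources used here.

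In all, 22 probe sets name 1 of the 9 genes, 18 of them alone and 4 together with other genes. A probe set was called at an adjusted p under 0.05 by limma and a difference of at least 1.5-fold. After Pdpk1 deletion 12 of the 18 met this, 8 higher and 4 lower, and 14 of the 18 had groups that did not overlap. Over all 45037 probe sets tested 1.02% were called, 0.737% higher and 0.282% lower, and 21.3% had groups that did not overlap; over all genes by the representing probe set 1.36% were called, 1.01% higher and 0.357% lower. The choice of the genes fixes that all 9 representing probe sets were called, 5 higher and 4 lower, so the counts of the 18 are no test against these shares. Among the other 9 probe sets those called were 1451240_a_at and 1424108_at of Glo1 and 1426995_a_at of Gfer, all higher. The plot of log2 signal by array gives every value of these 18 probe sets.

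**Figure D1:**
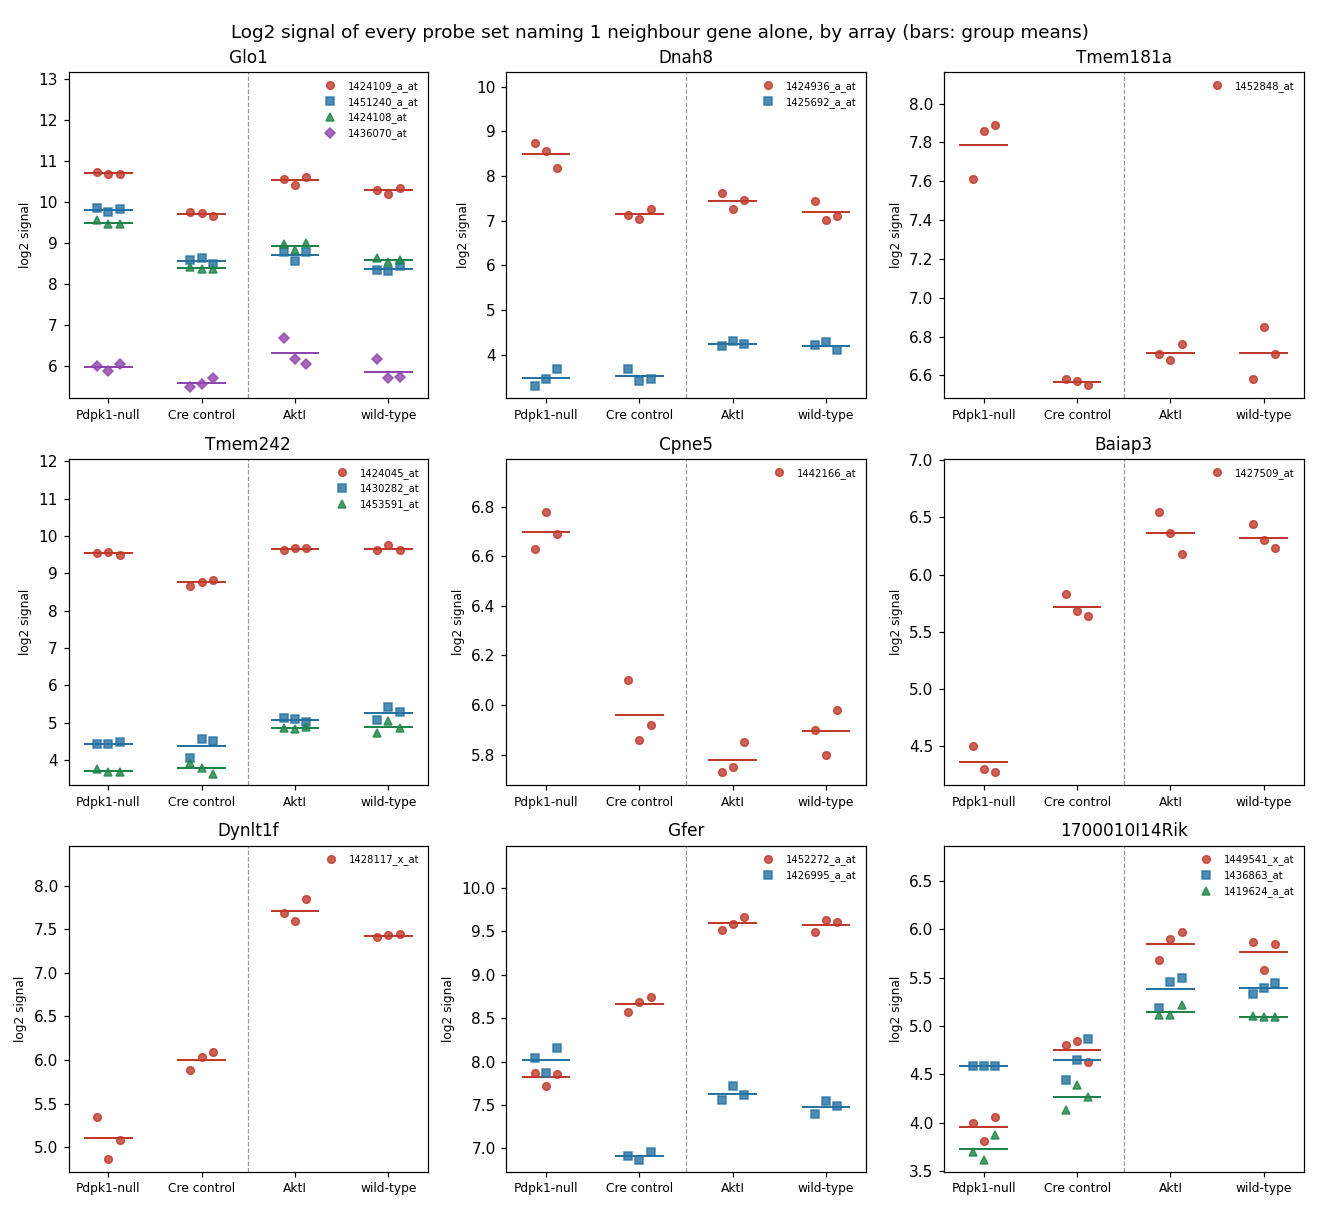
Log2 signal on each of the 12 arrays (vertical axis) by group (horizontal axis) for the 18 probe sets that name 1 of the 9 genes alone; each symbol is 1 array, bars are group means, and a dashed line separates the 2 experiments, whose levels are not comparable. The 2 Gfer probe sets lie on opposite sides of their Cre control values in Pdpk1-null CTL, 1.11 higher and 0.84 lower on the log2 scale.

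Glo1, the methylglyoxal-clearing enzyme, has 4 probe sets, and all 4 were higher in Pdpk1-null CTL with no overlap of the groups. By the representing probe set 1424109_a_at the log2 signal was 10.72, 10.69 and 10.68 in Pdpk1-null CTL, against 9.75, 9.73 and 9.67 in Cre control CTL. The arrays of each group were nearly equal, and the difference was 0.98 ± 0.064 (standard error), or 1.97-fold. Probe set 1451240_a_at gave 9.86, 9.75 and 9.82 in Pdpk1-null CTL and 8.58, 8.63 and 8.49 in Cre control CTL, a difference of 1.25 ± 0.0708 or 2.37-fold. With 1424108_at the signal was 9.57, 9.46 and 9.47 in Pdpk1-null CTL and 8.43, 8.37 and 8.36 in Cre control CTL, a difference of 1.12 ± 0.068. These 3 probe sets thus place the enzyme's transcript at about the same excess in the deleted cells. The fourth, 1436070_at, gave 6.00, 5.88 and 6.07 in Pdpk1-null CTL and 5.49, 5.58 and 5.73 in Cre control CTL, a difference of 0.38 ± 0.0864 or 1.3-fold.

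Gfer, the disulfide relay oxidase, was the gene whose probe sets gave opposite directions. By the representing probe set 1452272_a_at it had a log2 signal of 7.87, 7.72 and 7.86 in Pdpk1-null CTL, against 8.57, 8.68 and 8.74 in Cre control CTL, which is 0.84 lower (difference -0.84 ± 0.0781, 1.8-fold). By 1426995_a_at it had 8.04, 7.87 and 8.16 in Pdpk1-null CTL, against 6.91, 6.87 and 6.96 in Cre control CTL, which is higher by 1.11 ± 0.0866 or 2.16-fold. Every Pdpk1-null array was below every Cre control array with the first probe set and above every one with the second. The mean over both probe sets was 7.92 in Pdpk1-null CTL and 7.79 in Cre control CTL, a difference of 0.13, so that no direction for Gfer as a gene can be given from these arrays.

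Dnah8, the axonemal dynein heavy chain, gave 8.74, 8.56 and 8.18 in Pdpk1-null CTL, against 7.13, 7.04 and 7.26 in Cre control CTL, by 1424936_a_at. The Pdpk1-null arrays spread more than the Cre control arrays but stayed above all of them, and the difference of 1.35 ± 0.136, or 2.55-fold, was the largest upward difference of the 9 representing probe sets. Its other probe set, 1425692_a_at, was below background in all 4 groups and differed by -0.04 ± 0.112, with overlapping groups. A probe set at background says little about a change, so for Dnah8 the direction rests on 1 probe set.

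Dynlt1f, the dynein light chain, was lower by the probe set that names it alone and higher by those that name it with its copies. With 1428117_x_at, a probe set of the type that Affymetrix marks as holding probes that can match other sequences, the signal was 5.35, 4.87 and 5.09 in Pdpk1-null CTL, against 5.89, 6.04 and 6.09 in Cre control CTL, a difference of -0.90 ± 0.12. This call was lost, and 8 of the 9 genes were called, without Pdpk1-null replicate 3, Cre control replicate 2 or Cre control replicate 3. With 1428116_a_at, which names Dynlt1a, Dynlt1b, Dynlt1c and Dynlt1f, it was 11.52, 11.47 and 11.52 in Pdpk1-null CTL and 10.19, 10.20 and 10.20 in Cre control CTL, a difference of 1.31 ± 0.0624 or 2.48-fold. Each group of 3 arrays agreed within 0.05 here, and the groups lay far apart. Probe set 1453473_a_at, which names the same 4 genes, gave 11.06, 11.09 and 11.09 in Pdpk1-null CTL and 9.73, 9.65 and 9.78 in Cre control CTL, a difference of 1.36 ± 0.0673. The fourth, 1455748_at, was below background in all 4 groups and differed by 0.33 ± 0.0868, with every Pdpk1-null array above every Cre control array. As these probe sets name up to 4 genes, which gene each signal comes from is uncertain, and the direction for Dynlt1f itself is uncertain with it. The promoter stretches printed above do not settle this, and no transcript or probe sequence was compared.

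Tmem181a, the membrane protein, gave 7.61, 7.86 and 7.89 in Pdpk1-null CTL, against 6.58, 6.57 and 6.55 in Cre control CTL, by 1452848_at. The difference was 1.22 ± 0.087 or 2.33-fold, and the 3 Cre control arrays were nearly equal. A second probe set, 1435948_at, names Tmem181a together with the pseudogenes Tmem181b-ps and Tmem181c-ps, and it gave 8.23, 8.10 and 8.28 in Pdpk1-null CTL and 7.55, 7.77 and 7.74 in Cre control CTL. It had the same direction at a smaller size, 0.52 ± 0.0859 or 1.43-fold.

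Cpne5, the copine, has 1 probe set, 1442166_at, with 6.63, 6.78 and 6.69 in Pdpk1-null CTL, against 6.10, 5.86 and 5.92 in Cre control CTL. The difference of 0.74 ± 0.084, or 1.67-fold, was the smallest upward difference of the 9 genes. Baiap3, the Munc13-family protein, also has 1, 1427509_at, with 4.50, 4.30 and 4.27 in Pdpk1-null CTL and 5.83, 5.68 and 5.64 in Cre control CTL. Its difference of -1.36 ± 0.0886, or 2.56-fold, was the largest downward difference of the 9. As its mean was below background in Pdpk1-null CTL, set against the background level it was at least 2.41-fold lower.

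Tmem242, whose human counterpart acts in complex I and ATP synthase assembly, gave 9.55, 9.57 and 9.48 in Pdpk1-null CTL, against 8.67, 8.78 and 8.83 in Cre control CTL, by 1424045_at. The difference was 0.77 ± 0.0719 or 1.71-fold. Its other probe sets, 1430282_at and 1453591_at, were below background in Pdpk1-null and in Cre control CTL and differed by 0.07 ± 0.128 and -0.07 ± 0.0856, with overlapping groups.

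1700010I14Rik has no established name or role given here. By 1449541_x_at, again of the type that can match other sequences, it had 4.00, 3.81 and 4.06 in Pdpk1-null CTL, a mean below background, and 4.80, 4.84 and 4.63 in Cre control CTL, a difference of -0.80 ± 0.0906, and against the background level at least 1.24-fold lower. Probe set 1419624_a_at gave 3.70, 3.61 and 3.87 in Pdpk1-null CTL and 4.13, 4.39 and 4.27 in Cre control CTL, a difference of -0.54 ± 0.0961 with both means below background. The third, 1436863_at, read 4.59 on each Pdpk1-null array and 4.44, 4.65 and 4.87 on the Cre control arrays, a difference of -0.06 ± 0.106. For this gene the signal was near background throughout the experiment.

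With AktI none of the 18 probe sets was called by limma, beside 1.94% of all probe sets (2.53% of genes by the representing probe set). An unadjusted p under 0.05 was reached by 5 of the 18, beside 17.7% of all probe sets, and SAM, the test named in the study's methods, also called 0. That no representing probe set was called was part of how the genes were chosen, so the other 9 probe sets are the ones that this choice leaves free. Means were higher in AktI than in wild-type CTL for 14 of the 18 and lower for 4, and in 6 of the 18 the groups did not overlap, all 6 higher, beside 23.5% of all probe sets.

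Glo1 accounted for 4 of the 5 probe sets under the unadjusted p of 0.05. Probe set 1424108_at had 8.97, 8.84 and 9.01 in AktI CTL, against 8.63, 8.54 and 8.60 in wild-type CTL. The difference of 0.35 ± 0.0709 had an adjusted p of 0.0276 by limma but, at 1.27-fold, stayed under the fold minimum. Probe set 1451240_a_at had 8.79, 8.56 and 8.79 in AktI CTL and 8.35, 8.32 and 8.44 in wild-type CTL, a difference of 0.34 ± 0.0827 (limma, adjusted p = 0.0524). The representing probe set, 1424109_a_at, had 10.57, 10.42 and 10.61 in AktI CTL and 10.30, 10.20 and 10.35 in wild-type CTL, a difference of 0.25 ± 0.0776. All arrays treated with AktI were above all wild-type arrays in these 3 probe sets. With 1436070_at the groups overlapped, at 6.70, 6.19 and 6.06 in AktI CTL and 6.18, 5.71 and 5.74 in wild-type CTL. The difference was 0.44 ± 0.18 (limma without pairing, adjusted p = 0.247). In each pair of the same replicate number the AktI array was above the wild-type array.

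Dynlt1f held the fifth, with 7.68, 7.59 and 7.85 in AktI CTL and 7.41, 7.43 and 7.44 in wild-type CTL by 1428117_x_at. The difference was 0.28 ± 0.0792, opposite in sign to that after Pdpk1 deletion. The 3 probe sets that name Dynlt1f with its copies differed by -0.06, -0.07 and 0.06, all with overlapping groups. Gfer gave 9.52, 9.58 and 9.67 in AktI CTL and 9.49, 9.63 and 9.61 in wild-type CTL by 1452272_a_at, a difference of 0.01 ± 0.0727. With 1426995_a_at Gfer gave 7.56, 7.72 and 7.61 in AktI CTL and 7.40, 7.55 and 7.49 in wild-type CTL, a difference of 0.15 ± 0.0741 (limma, adjusted p = 0.354). Here both Gfer probe sets lay within 0.15 of no difference.

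The remaining genes differed little with AktI. Dnah8 gave 7.62, 7.25 and 7.47 in AktI CTL and 7.43, 7.01 and 7.11 in wild-type CTL by 1424936_a_at, a difference of 0.26 ± 0.129 with overlapping groups. Tmem181a gave 6.71, 6.68 and 6.76 in AktI CTL and 6.58, 6.85 and 6.71 in wild-type CTL, a difference of 0.00 ± 0.0817. Tmem242 gave 9.62, 9.68 and 9.69 in AktI CTL and 9.62, 9.75 and 9.62 in wild-type CTL, a difference of 0.00 ± 0.0676. In none of these did the treated arrays as a group lie apart from the untreated ones. Dnah8 was nevertheless higher with AktI in each pair of arrays of the same replicate number. Cpne5 gave 5.73, 5.75 and 5.85 in AktI CTL and 5.90, 5.80 and 5.98 in wild-type CTL, a difference of -0.12 ± 0.0733. Baiap3 gave 6.55, 6.36 and 6.18 in AktI CTL and 6.44, 6.30 and 6.23 in wild-type CTL, a difference of 0.04 ± 0.103. For 1700010I14Rik the 3 probe sets differed by 0.08, 0.05 and -0.01, none by more than 1 standard error.

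**Figure D2:**
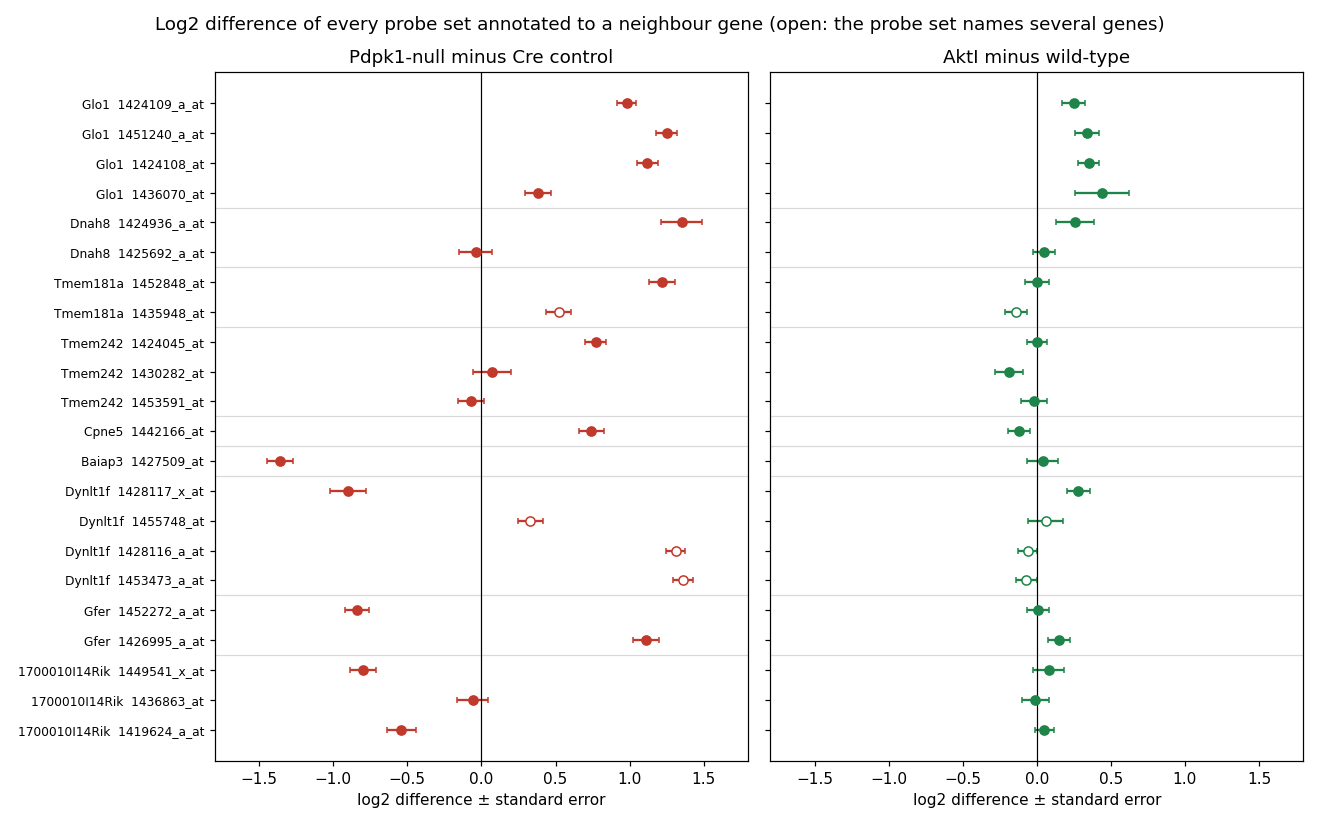
Log2 difference with its standard error (horizontal axis) for each of the 22 probe sets that name 1 of the 9 genes (rows), for Pdpk1-null minus Cre control on the left and AktI minus wild-type on the right; open circles are the 4 probe sets that name several genes. Differences run from -1.36 to 1.36 on the left, and on the right the highest is 0.44, for Glo1 by 1436070_at.

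Whether the probe sets of 1 gene moved alike was asked for the 5 genes with more than 1 probe set of their own. After Pdpk1 deletion the probe sets had 1 sign in 2 of the 5, Glo1 and 1700010I14Rik, and with AktI in 3 of the 5. When only probe sets above background in at least 1 group were kept, 2 of 3 genes had 1 sign after Pdpk1 deletion, Glo1 and 1700010I14Rik, and Gfer did not. The distance between the highest and the lowest log2 difference of a gene's probe sets above background was 1.96 for Gfer, 0.86 for Glo1 and 0.74 for 1700010I14Rik. Over the 5317 genes with such probe sets the median distance was 0.11, the 95th percentile 0.39 and the 99th percentile 0.73, and the highest value was 2.39, for Wls. Gfer ranked 3 from the largest, Glo1 33 and 1700010I14Rik 52. These genes were chosen by a call in this contrast, which favours a wide distance, so the ranks are a description. The signal of 1700010I14Rik was also near background.

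With AktI the same distance was 0.13 for Gfer, 0.19 for Glo1 and 0.08 for 1700010I14Rik, beside a median of 0.12 and a 95th percentile of 0.48 over 5306 genes. The probe sets of these genes thus lay apart in 1 experiment and together in the other. The choice of genes called after Pdpk1 deletion and not with AktI favours this pattern, so it is a description. Among the 9010 genes with more than 1 probe set of their own, Gfer was the 1 gene with probe sets called in both directions after Pdpk1 deletion, and there were 0 such genes with AktI. A distance of 1 or more was found in 22 of the 5317 genes after Pdpk1 deletion, and 4 of these are among the 97 ranked genes nearest to Pdpk1, Gfer, Pim1, Zdhhc14 and Zfp945. This is 4.12% of those near Pdpk1 and 0.345% of the others. With AktI it was found in 28 of 5306 genes, 0 of them among the 97 near Pdpk1. Because Gfer entered through the same contrast, these figures are a description. Whether the probe sets of a gene read different transcripts, or sequence that differs between the floxed and the control mice, was not tested.

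The genes beside the 9 were set against them to see how far along the chromosome the differences extended. Of the 67 other genes within 5 measured genes on either side, 0 were called by the representing probe set after Pdpk1 deletion by limma and 0 by SAM, beside 1.36% of all genes, while 19 had an unadjusted p under 0.05, 7 higher and 12 lower, beside 17.3% of all genes. By the representing probe sets their differences ran from -0.51 for Serac1 to 0.46 for Nthl1, with a median of -0.02, and within 10 genes on either side 0 of 112 were called. Some of these genes were below background in both groups, where a missing call says little. Serac1 was among them, with a mean of 3.68 in Pdpk1-null and 4.19 in Cre control CTL.

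Over all 147 probe sets that name 1 of the 67 flanking genes alone, 3 were called, all lower (2.04%, beside 1.02% of all probe sets), and differences ran from -1.32 for Zdhhc14 to 0.57 for Snx9. Zdhhc14, of the protein palmitoyltransferase family, lies 2 measured genes from Tmem242. By 1437614_x_at it had 5.46, 5.66 and 5.64 in Pdpk1-null CTL, against 6.81, 7.06 and 6.86 in Cre control CTL, a difference of -1.32 ± 0.0915 (limma, adjusted p = 0.000629). By 1438975_x_at it had 5.73, 5.74 and 5.38 in Pdpk1-null CTL, against 6.77, 6.46 and 6.52 in Cre control CTL, a difference of -0.97 ± 0.121 (limma, adjusted p = 0.00991). The groups did not overlap in either, while the other 4 probe sets of Zdhhc14 differed by -0.10 to 0.09 and none was called. Synj2, synaptojanin 2, an inositol phosphatase, had 4.27, 4.31 and 3.67 in Pdpk1-null CTL, a mean below background, against 4.91, 4.91 and 5.35 in Cre control CTL by 1427685_a_at, a difference of -0.98 ± 0.185 (limma, adjusted p = 0.0418). Its other 5 probe sets differed by -0.44 to 0.10 and none was called. With AktI the Zdhhc14 probe sets differed in the same direction, by -0.48 and -0.40 (limma, adjusted p = 0.0388 and 0.0151). They stayed under the fold minimum and were not called. The Synj2 probe set differed by -0.26 (limma, adjusted p = 0.203) and was not called. Single probe sets of flanking genes thus reached differences as large as those of the 9. After Pdpk1 deletion the other probe sets of Zdhhc14 were near 0. For Synj2 the representing probe set was also lower, with a difference of -0.44 (limma, adjusted p = 0.0305, under the fold minimum).

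Next to the 9 the order is as follows, by representing probe sets. Tmem181a and Dynlt1f are adjacent measured genes, with Gtf2h5 before them at -0.16 and Ezr after them at 0.14, neither called. Between Glo1 and Dnah8 lies 1 measured gene, 1700097N02Rik, with 0.25 (limma, adjusted p = 0.422), and on the outer sides lie Btbd9 with -0.03 and Glp1r with 0.06. Glp1r was below background in Pdpk1-null and in Cre control CTL.

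Gfer lies 25 measured genes from Pdpk1, between Syngr3 at 0.08 and Noxo1 at 0.01, and is the nearest of the 9. Baiap3 is 54 genes away on the same side, between Tsr3 at -0.31 and Prss28 at 0.22, and Cpne5 is 153 away, between Rab44 at 0.04 and Ppil1 at -0.11. On the other side 1700010I14Rik is 99 genes away, between Pde10a at 0.08 and 6530411M01Rik at 0.03. None of these 8 flanking genes had a called probe set. Prss28 and 6530411M01Rik were below background in Pdpk1-null and in Cre control CTL, where a missing call says little. Over the 318 genes nearest to Pdpk1 other than the 9, 9 were called after Pdpk1 deletion (2.83%): Crebrf and Zfp760 rose, and Paqr4, Zfp213, Zfp52, Zfp943, Zfp945, Zfp948 and Zfp994 fell. With AktI 2 of the 67 flanking genes were called by the representing probe set (2.99%, beside 2.53% of all genes, 1.51% higher and 1.03% lower), Abcg1, a sterol transporter, higher by 0.95 and Cdkn1a, a cell cycle inhibitor, lower with a difference of -0.68.

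**Figure D3:**
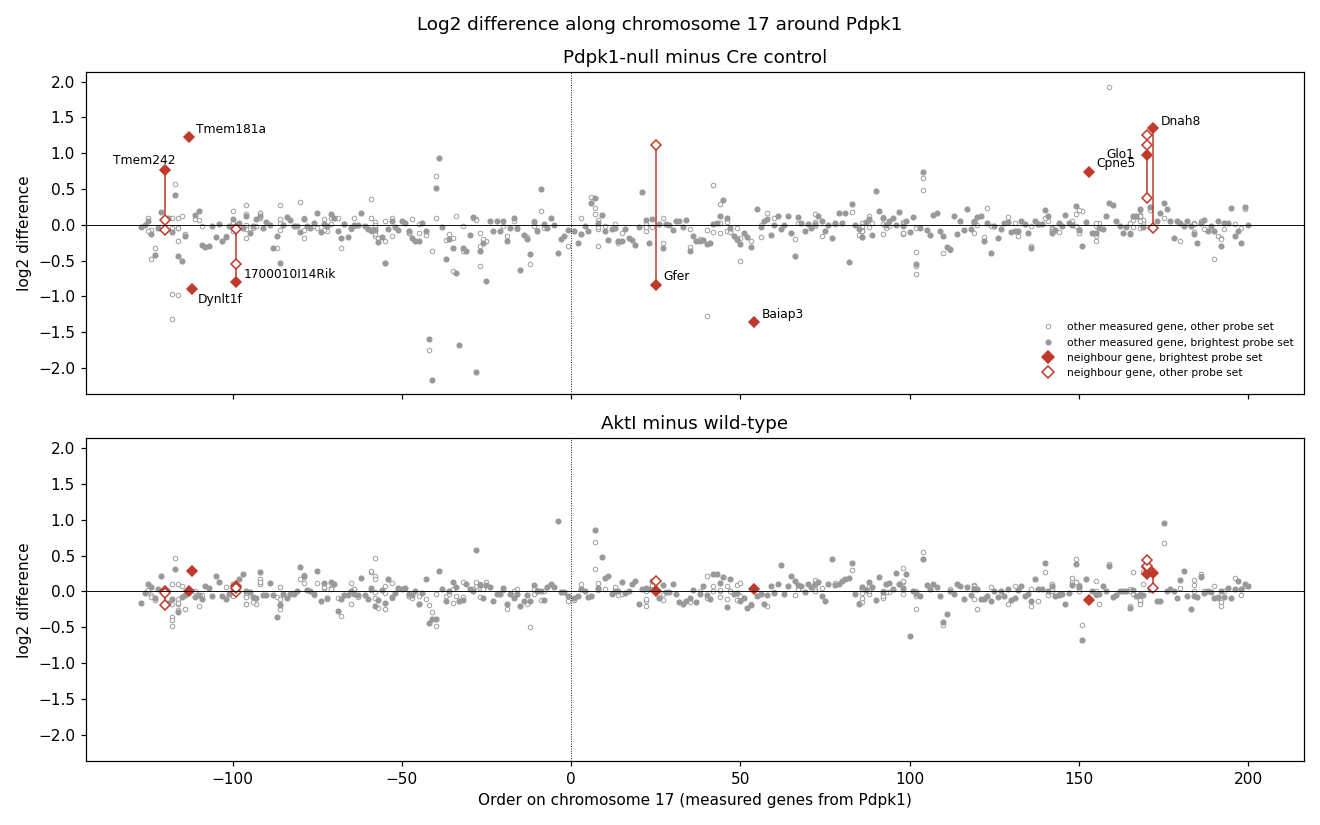
Log2 difference (vertical axis) of 327 measured genes around Pdpk1 by their order on chromosome 17 (horizontal axis, measured genes from Pdpk1 at 0), for Pdpk1-null minus Cre control above and AktI minus wild-type below; diamonds are the 9 genes and circles the other genes, filled for the representing probe set and open for other probe sets that name the gene alone. Among the 67 flanking genes 0 representing probe sets and 3 of 147 probe sets were called above, the lowest at -1.32 for Zdhhc14.

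Just inside the choice were Cpne5, with a difference of 0.74, and Tmem242, with 0.77. Crebrf with 0.74, Zfp760 with 0.93 and Paqr4 with -0.63 were called after Pdpk1 deletion but stayed outside it, as their difference from the AktI effect did not pass. Ergic1 with -0.55 and Airn and Riok2 with -0.53 each were next below the call.

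Because levels of the 2 experiments are not on 1 scale, the place of each probe set among all probe sets of its array was compared instead, as a percentile. For all 18 probe sets the median percentile of wild-type CTL was nearer to that of Cre control than to that of Pdpk1-null CTL. The same held for the 12 of them that were called after Pdpk1 deletion, against 276 of all 459 called probe sets (60.1%). For AktI CTL it was likewise 12 of the 12, against 133 of 459 (29%), where the choice of genes without an AktI call favours a place near wild-type. Gfer by 1426995_a_at was at percentile 86.1 in Pdpk1-null CTL, 76.6 in Cre control, 76.1 in AktI and 75.6 in wild-type CTL. By 1452272_a_at it was at 84.8 in Pdpk1-null CTL, 90.4 in Cre control, 90.5 in AktI and 90.8 in wild-type CTL.

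Baiap3 stood at 44.9 in Pdpk1-null CTL and at 64.3, 65.2 and 64.7 in Cre control, AktI and wild-type CTL. Tmem242 by 1424045_at stood at 94.6 in Pdpk1-null CTL and at 90.9, 91.1 and 91.0 in Cre control, AktI and wild-type CTL. For these genes the 3 groups without Pdpk1 deletion shared 1 place. Tmem181a was at 84.7 in Pdpk1-null CTL, 73.5 in Cre control, 68.5 in AktI and 68.8 in wild-type CTL, and Glo1 by 1451240_a_at at 95.6, 89.8, 85.4 and 82.1 in the same order of groups. In those the Cre control arrays lay between the deleted and the wild-type cells. The 2 experiments differ in genotype and 4OHT and, as inferred from the array medians, in normalisation. As the study describes them, they also differ in IL-2 during activation. The parts of these differences cannot be told apart here.

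**Figure D4:**
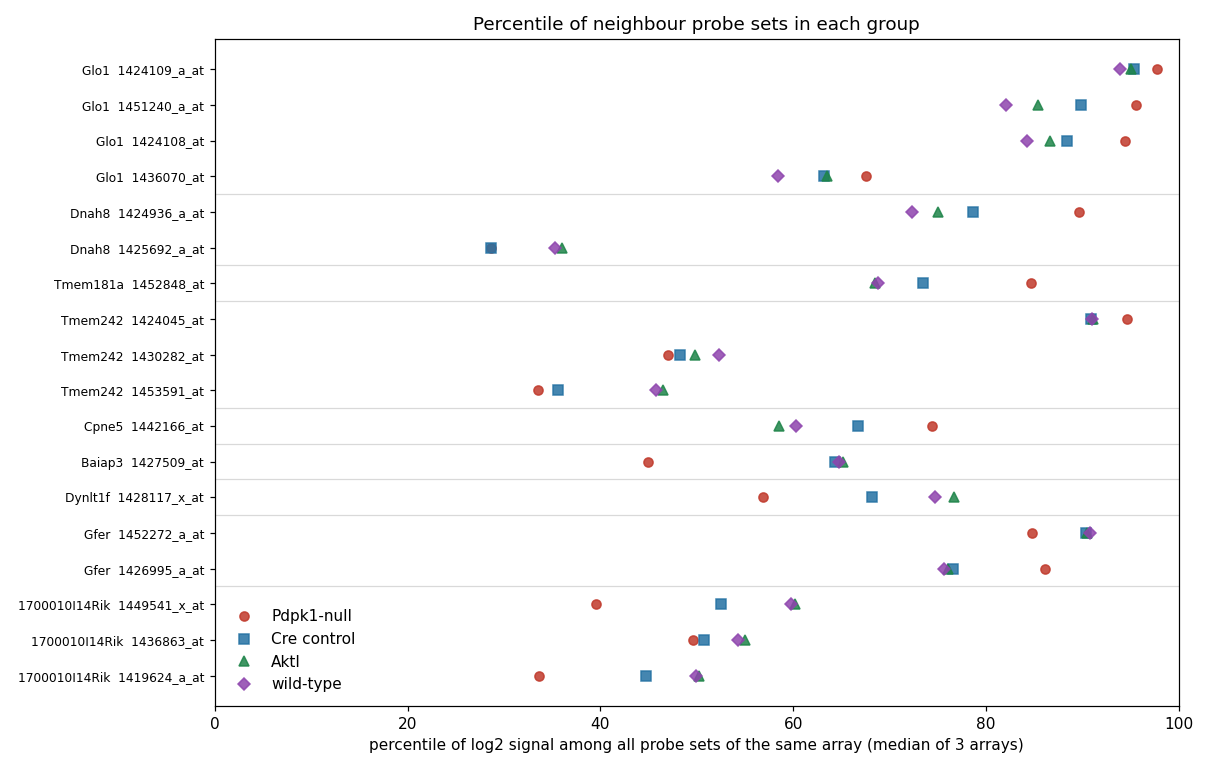
Percentile of the log2 signal among all probe sets of the same array (horizontal axis, median of 3 arrays) for the 18 probe sets that name 1 of the 9 genes alone (rows), in Pdpk1-null, Cre control, AktI and wild-type CTL. For all 18 the wild-type symbol is nearer to the Cre control symbol than to the Pdpk1-null symbol.

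Genes of the same pathways and families were counted beside the 9. After Pdpk1 deletion 0 genes of the 7 lists that could be counted were called, the 9 left out, beside 1.36% of all genes. As the lists are short, a count of 0 lies near that share. Of the 9 other genes of methylglyoxal handling, 3 had an unadjusted p under 0.05, 1 higher and 2 lower, beside 17.3% of all genes. The largest difference was -0.42, for Fn3krp, a kinase that repairs sugar-modified proteins (limma, adjusted p = 0.153). Hagh, glyoxalase II, which acts after Glo1 and also lies near Pdpk1, differed by -0.37 (adjusted p = 0.0896). The step before and the step after lactoylglutathione thus had differences of opposite sign, of which the second was not called.

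Of 12 other genes of the mitochondrial disulfide relay, the pathway of Gfer, 0 were called. At an unadjusted p under 0.05 by limma 7 were lower and 0 higher, beside 1644 lower and 1496 higher among all 18193 genes. The median of the 12 was -0.25, beside -0.01 over all genes. Whether the list moved as a set was not tested. Chchd4, the import receptor that Gfer reoxidizes, differed by -0.41 (limma, adjusted p = 0.0602), and Chchd10, a small protein of the intermembrane space, by -0.57 (adjusted p = 0.0383, under the fold minimum). With AktI Chchd10 fell, with a difference of -0.77 (adjusted p = 0.00309), the 1 gene of this list that was called, and the median was -0.00.

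The 9 other axonemal dynein heavy chains had a median of 0.01 and a largest difference of 0.24, for Dnah12, after Pdpk1 deletion, and 0 of them had an unadjusted p under 0.05. Of these, Dnah2, Dnah5, Dnah6, Dnah7a, Dnah12 and Dnah17 had means below background in Pdpk1-null and in Cre control CTL, where a missing call says little. Over the 10 other subunits of cytoplasmic dynein the median was -0.04, and 1, the light chain Dynll1 with -0.23, had an unadjusted p under 0.05. Of the 8 other copines Cpne3 had the largest difference, 0.33 (limma, adjusted p = 0.0414, under the fold minimum), and with AktI it rose by 0.66 and was the 1 copine called. The 11 other genes of the Munc13 list had a median of -0.01 with Unc13a lowest at -0.37, and the 12 partners in complex I and ATP synthase assembly a median of -0.04 with Atp5g1 lowest at -0.24. Cpne4, Cpne8, Cpne9, Unc13a, Unc13b and Unc13c were likewise below background in Pdpk1-null and in Cre control CTL. With AktI 0 genes were called in the axonemal dynein, cytoplasmic dynein, Munc13 and assembly lists, beside 2.53% of all genes. In the methylglyoxal list 0 were called without pairing, and 1, the aldehyde dehydrogenase Aldh2, with the arrays of a mouse as a replicate block. Aldh2 differed by 1.19 (limma, adjusted p = 0.0735 unpaired and 0.00269 with the block), and SAM called it too.

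For each of the 9 genes the most similar profile over the 12 arrays, with the mean of each experiment removed, was looked up among 11969 genes above background. Each gene was taken by its representing probe set. The difference between Pdpk1-null and Cre control CTL by which the 9 were chosen enters these correlations, so they are descriptions. Tmem181a was most like Wls (r = 0.988) and Ttc5 (0.977), Tmem242 most like Igsf8 (0.982) and Wls (0.978), and Glo1 most like Supt16 and Reep3 (0.978 each). Dnah8 was most like Ifi30 and Tpm4 (0.966 each) and 1700010I14Rik most like Acin1 (0.948) and Tada2b (0.94). Neither of the 2 most similar genes lay near Pdpk1 for these 5. Gfer by 1452272_a_at was most like Zfp994 (0.982), which lies 33 measured genes to the other side of Pdpk1, and Mtm1 (0.974). The other Gfer probe set, which differed in the opposite direction after Pdpk1 deletion, was not compared. Cpne5 was most like Decr2 (0.968), 90 measured genes from Pdpk1, and Ttc5 (0.961). Baiap3 was most like Slc10a7 (0.976) and Mtm1 (0.963), and Dynlt1f most like Shc4 (0.951) and Ndufa10 (0.949). For Baiap3 and Dynlt1f, too, neither of the 2 most similar genes lay near Pdpk1.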

How the data were processed

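RNA from 12 CTL cultures was hybridised to Affymetrix mouse arrays. The deposited values are log2 signals, which the authors obtained with Affymetrix Expression Console 1.1 by the RMA method (robust multichip averaging); no further normalisation was applied, and precision is limited by 3 arrays per group. Of 45101 probe sets, 64 controls were left out. Probe sets were named through the platform annotation, 34945 with 1 gene, 932 with several and 9160 with none, and gene order came from RefSeq through Entrez IDs (18032 of 18193 genes, 9 of 9 members).

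Calculations used R 4.3.3 and limma 3.58.1. The 6 arrays of a comparison were fitted by themselves (lmFit, eBayes) without covariates, with Benjamini-Hochberg adjustment over the 45037 remaining probe sets. The method was tested on simulated data. The arrays of the AktI experiment are paired by mouse according to the study's figure legend, and arrays of 1 replicate number were taken as 1 mouse. Deviations from the group means of arrays of 1 mouse correlated at 0.034 to 0.170, and those of different mice at -0.102 to 0.038. No source says that the Pdpk1-null and Cre control arrays of 1 number share anything. They are labelled biological replicates; p-values measure the spread between them.

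The genes, pathway lists and comparisons were chosen with earlier results of these data known. The text names the 9 genes with every probe set, Pdpk1 and the 2 most similar genes to each of the 9. Of lists and flanking genes it names those called or else the largest difference. Direct neighbours, Snx9, Zdhhc14, Synj2, Hagh, Chchd4, Pim1 and Eme2 were named after their values were seen. Alternatives were the eBayes settings, normalisation, a filter on dim probe sets, other fold minimums, the mean over probe sets, 1 model over all arrays, a replicate block, SAM and leaving out each array.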

Additional observations from a re-analysis of the deposited data

How the results depend on the processing

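The call of the 9 genes after Pdpk1 deletion was repeated under each alternative. All 9 were called with SAM, a replicate block, other eBayes settings or normalisations, no fold minimum, a filter on dim probe sets and a common model of the 12 arrays; 6 were by the mean of all probe sets, 3 at a minimum of 2-fold, and 8 to 9 when 1 array was left out. Dynlt1f was the gene lost, without Pdpk1-null replicate 3, Cre control replicate 2 or Cre control replicate 3. Taking the mean of all probe sets turned Gfer round, to 0.13, and gave 0.93 for Glo1, 0.65 for Dnah8, 0.26 for Tmem242 and -0.47 for 1700010I14Rik. The probe sets of 2 of 5 genes had 1 sign after Pdpk1 deletion, and of 1 to 3 when 1 array was left out (1 without Cre control replicate 3, 3 without Pdpk1-null replicate 1 or Cre control replicate 1). For the flanking genes after Pdpk1 deletion the count of 0 became 3 without a fold minimum; for the pathway lists it became 2 without a fold minimum and 0 to 1 when 1 array was left out (1 without Pdpk1-null replicate 2). With AktI the count of probe sets called, 0, became 1 without a fold minimum. The 2 flanking genes called with AktI became 4 without a fold minimum, 0 at 2-fold, 1 by the mean of all probe sets and 1 to 2 when 1 array was left out (1 without AktI replicate 1). The 2 list genes called with AktI became 5 without a fold minimum, 0 at 2-fold and 1 by the mean of all probe sets, and 3, with Aldh2 gained, under the replicate block, SAM, the filter on dim probe sets, the common model and without AktI replicate 3; the adjusted p of Aldh2 ran from 0.00269 to 0.236. The cause of these changes was not tested beyond what each setting removes or adds. In all, 103 recomputed counts stayed within 1.5 times and 13 moved, and of the single values 327 stayed, 26 moved and 1 reversed. SAM called 633 probe sets after Pdpk1 deletion and 952 with AktI, and limma 459 and 872.

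Below background in all 4 groups were 1 probe set of Dnah8, 1 of Tmem242 and 1 that names Dynlt1f with its copies. These say little about a change. For Baiap3 and 1700010I14Rik the Pdpk1-null signal was at background, so their differences are bounds. Deviations of the Pdpk1-null and Cre control arrays of the same number correlated at -0.011 to 0.050, and of other numbers at -0.074 to 0.041, so the numbers were not taken as pairs; the replicate block called 9 of the 9 genes after Pdpk1 deletion and 0 of their probe sets with AktI.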
